A study of Mus musculus with 2 samples.

Results

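Endothelial cells line the blood vessels of the brain, and 477 of them were picked by their transcripts from 14265 filtered cells of 2 single-cell RNA-seq libraries of mouse cerebral cortex. A cell was taken where Cldn5, Flt1, Ly6c1, Slco1a4, Pecam1 and Esam together made up at least 0.3% of its unique molecules (UMIs). Cells were left out where the mural genes Rgs5, Kcnj8, Higd1b and Acta2 reached 0.2%, the collagen genes Col1a1, Col1a2 and Col3a1 reached 0.4%, or the microglial genes Cx3cr1, P2ry12 and Csf1r reached 0.2%. Cells also had at least 300 genes detected and at most 25% mitochondrial UMIs. The N-PRα-KO library gave 363 endothelial cells among 4196 filtered cells, or 8.65% (exact 95% interval 7.82 to 9.54). The WT library gave 114 among 10069, or 1.13% (0.935 to 1.36).

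One library came from N-PRα-KO mice, which carry Nestin-Cre with Pdgfra flox/flox alleles, and the other from wild-type C57BL/6J mice. Nestin-Cre acts in neural progenitors and the cells they give rise to, while endothelial cells arise from another lineage; recombination in them was not measured here. In both libraries the cortex was dissociated with its meninges and enriched on magnetic beads with an antibody to CD140a, the receptor encoded by Pdgfra, and no age, sex or number of animals is given in the labels. With 1 library per genotype no difference between genotypes can be tested: ratios below compare these 2 libraries, their intervals cover counting error only, and library preparation, depth, animals and genotype cannot be told apart.

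Brain endothelial cells form the blood-brain barrier. They are sealed by tight junctions, they carry little vesicular transport, and they feed the brain through transporters for glucose, lactate, amino acids and iron while ATP-driven pumps return drugs to the blood. This state is kept by Wnt and Norrin signals from neighbouring cells, acting through beta-catenin. ETS, SOX and forkhead transcription factors set endothelial identity, and along each vessel the cells differ from artery through capillary to vein.

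ETS factors bind DNA around the letters GGAA, so the 250 bases before the start site of 3 endothelial genes are shown with each GGAA, or TTCC for the opposite strand, in capitals. The genes were chosen because their levels differed in 3 ways between the libraries: Cldn5 was higher in the N-PRα-KO cells, Flt1 was lower and Tie1 was close to level (log2 ratio 0.19, or -0.96 once the trend with GC content described below was removed). Sequences are from RefSeq on GRCm38.p6 and are written 5′ to 3′ along the gene's strand, at chr16:18776597-18776846 (plus strand) for Cldn5, chr5:147726012-147726261 (minus strand) for Flt1 and chr4:118489850-118490099 (minus strand) for Tie1.
Cldn5: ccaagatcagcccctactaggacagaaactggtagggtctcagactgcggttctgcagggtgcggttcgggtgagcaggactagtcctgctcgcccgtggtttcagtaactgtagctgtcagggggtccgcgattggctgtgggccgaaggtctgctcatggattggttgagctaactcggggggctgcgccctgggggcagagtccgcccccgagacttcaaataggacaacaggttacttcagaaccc
Flt1: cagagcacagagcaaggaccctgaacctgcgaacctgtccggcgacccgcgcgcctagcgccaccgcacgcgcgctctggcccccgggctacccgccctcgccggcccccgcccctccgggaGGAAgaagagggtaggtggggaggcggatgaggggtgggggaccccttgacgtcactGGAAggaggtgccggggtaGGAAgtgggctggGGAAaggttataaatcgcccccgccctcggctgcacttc
Tie1: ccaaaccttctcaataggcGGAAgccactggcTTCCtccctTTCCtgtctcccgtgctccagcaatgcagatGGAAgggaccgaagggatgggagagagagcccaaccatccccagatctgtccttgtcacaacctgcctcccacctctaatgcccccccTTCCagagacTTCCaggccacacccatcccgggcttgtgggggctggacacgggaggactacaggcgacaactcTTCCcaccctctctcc
The window before Cldn5, the tight-junction claudin of brain endothelium, held 0 such matches. That before Flt1, a VEGF receptor, held 4 and that before Tie1, an angiopoietin co-receptor, held 7. The gene positions used below for other genes put the Tie1 start at chr4:118490061, inside its window. Most of the Tie1 window therefore lies within that gene, unlike the windows of Cldn5 and Flt1. The letters are common: 93.4% of 27025 promoter windows of this length hold at least 1 match on either strand, and 93.2% of the windows of 103 endothelial-enriched genes do. The longer form CAGGAA, which contains GGAA, stood in 37.9% of the enriched genes' windows, against 21.3% of 5606 genes measured in the cells and 25.4% of all. CTTTGA, a core of TCF/LEF binding, stood in 20.4%, 10.1% and 14.1%, and ACAAAG, a core of SOX binding, in 10.7%, 11.3% and 16.5%. These are counts of letters in short windows, not binding sites.

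The label was checked on endothelial genes that played no part in the choice of cells. Levels are given as counts per 1000000 UMIs (CPM), summed over the cells of a library, N-PRα-KO first. Kdr, the main VEGF receptor, had 1178 and 2315 CPM, which was 11.7 and 28.1 times its level in all other filtered cells of the same libraries. Tie1 stood at 723 and 636 CPM (7.41 and 26.6 times the other cells), and Erg, an ETS factor of endothelium, at 279.7 and 216 CPM (13.7 and 22.9 times). Adgrl4, an adhesion receptor, was at 800.0 and 798 CPM, and Ptprb, the endothelial tyrosine phosphatase, at 1371 and 1787 CPM. Among 1197 genes at 100 CPM or more in both libraries, 149 were at least 3-fold above the other cells in both and 26 at least 10-fold. The 15 that stood furthest above other cells, rule genes aside, were Slc38a5, Ly75, Clic5, Ctla2a, Erg, Abcb1a, Adgrl4, AU021092, Cyyr1, Clec14a, Emcn, Ly6a, Slc35f2, Kdr and Unc45b. Since the cells were chosen for endothelial genes, this enrichment describes the choice and is not a test of it.

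Plvap, the diaphragm protein of leaky fenestrated vessels, had 37 UMIs in the N-PRα-KO cells and 0 in the WT cells, which allows up to 3 UMIs. Of the 6 genes listed for fenestrated and peripheral endothelium 1 reached 20 CPM, and of the 7 for lymphatic endothelium 2 did. Neither of those 2 lymphatic genes, Flt4 and Mmrn1, marks lymphatic vessels alone, and the lymphatic regulator Prox1 had 15 and 1 UMIs. Lyve1, a receptor of lymphatic vessels and macrophages, had 37 and 0 UMIs.

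**Figure D1:**
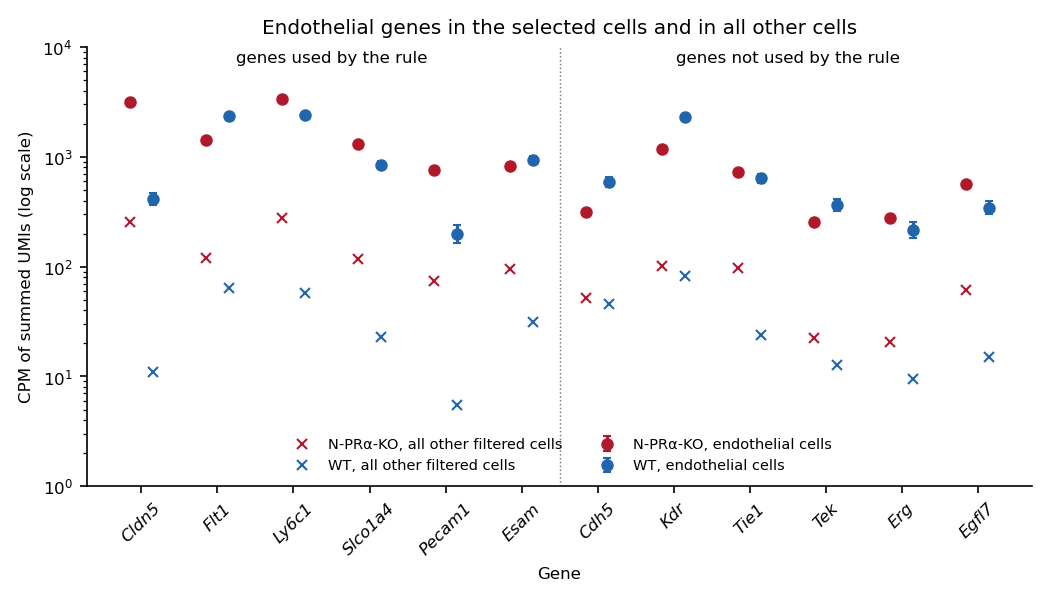
Level of 12 endothelial genes (CPM of summed UMIs, log axis; the 6 on the left were used to choose the cells). Circles are endothelial cells (363 in N-PRα-KO, 114 in WT) with exact Poisson 95% intervals, and crosses are all other filtered cells of the same library (3833 and 9955). Every circle lies above the cross of its own library, and the largest gap between the libraries' circles is that of Cldn5.

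The rule genes themselves differed between the libraries, and a lower Cldn5 makes the sum harder to reach. Cldn5 was at 3157 CPM in the N-PRα-KO cells and 411 CPM in the WT cells, a ratio of 7.68-fold (95% interval 6.77 to 8.74) and a log2 ratio of 2.94, or 1.84 without the GC trend described below. Per cell, Cldn5 had a median of 3245 CPM in the N-PRα-KO cells (lowest 0, highest 9334) and 346 CPM in the WT cells (0 to 2248). No UMI of it was seen in 2 of 363 N-PRα-KO cells and in 26 of 114 WT cells. Pecam1, an adhesion molecule of all endothelium, went the same way at 766 and 198 CPM, and Flt1 the other way at 1434 and 2335 CPM. Ly6c1, a surface protein of capillary endothelium, was at 3368 and 2396 CPM, the organic anion transporter Slco1a4 at 1304 and 846 CPM and Esam, a junctional adhesion molecule, at 822 and 938 CPM. These 6 levels are a description of the choice, with no test.

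The endothelial sum had a wide margin in the N-PRα-KO cells and a narrow one in the WT cells. It lay between 0.3% and 0.6% of UMIs in 40 of the 363 N-PRα-KO cells (11.02%) and in 52 of the 114 WT cells (45.6%). Just outside the limit were N-PRα-KO cells at 0.263% and 0.290% and WT cells at 0.296% and 0.299%, and just inside were cells at 0.302% and 0.325% and at 0.308% and 0.315%. Between 0.2% and 0.3% there were 3 further N-PRα-KO and 33 further WT cells that met the other limits. A sum over 8 other endothelial genes (Cdh5, Tie1, Kdr, Tek, Ptprb, Egfl7, Adgrl4 and Ctla2a), tried after the data were seen, took 345 N-PRα-KO and 154 WT cells. Of these, 2 N-PRα-KO and 43 WT cells were not members, and in those 43 cells Cldn5 was at 221 CPM. By this sum the shares were 8.22% and 1.53%.

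Many cells with endothelial transcripts also carried mural ones. Of 534 N-PRα-KO and 242 WT cells that reached the endothelial sum, the mural limit removed 153 and 126, and all limits together removed 32.0% and 52.9%. The pericyte gene Rgs5 was at 5205 and 6989 CPM in the cells so removed, and Kdr at 843 and 1885 CPM. The endothelial cells of the WT library are therefore a narrower selection of that library than those of the N-PRα-KO library are of theirs. Neither share is a share of the cortex, because cells were enriched by CD140a and because 8336 and 11438 barcodes were filtered on genes and mitochondrial UMIs.

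Depth favoured the N-PRα-KO cells: 3324931 UMIs were counted in them against 605529 in the WT cells, with medians of 7530 and 4359 per cell (ranges 1120 to 64421 and 456 to 20050). The median number of genes was 2833 and 1776 and the median mitochondrial share 15.2% and 14.9%. The libraries shared 105 cell indices, none of them a member in both. The comparison took in 7084 genes that reached 20 CPM in at least 1 of the libraries. Of these, 1321 (18.6%) were at least 2-fold higher in the N-PRα-KO cells and 721 (10.2%) at least 2-fold lower. Their median log2 ratio was -0.04. The ratio followed the GC content of the last 500 transcript bases, with a median of -0.56 in the fifth of genes poorest in GC and 0.97 in the richest. Of the genes 2-fold higher, 57.7% to 66.6% were also 2-fold higher in mural cells, fibroblasts, microglia, oligodendrocyte precursors or all other cells, and of those lower, 29.4% to 54.1% were also lower there. For these reasons the plot of list medians also shows each list with the GC trend removed and in all other filtered cells. The mix of other cells differed between the libraries. Oligodendrocyte precursors were 10.9% of N-PRα-KO and 67.6% of WT filtered cells, and fibroblasts 22.7% and 6.24%. A ratio over all other cells therefore also holds this difference in mix. All other cells also include the 171 N-PRα-KO and 128 WT cells that reached the endothelial sum and were removed by another limit. Endothelial sums among all other cells reached 1.80% and 1.26% of UMIs. Levels, folds and ratios of endothelial genes in all other cells hold these cells too, and their part was not tested. Ranges printed after a log2 ratio are 95% counting intervals.

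Pan-endothelial genes were expressed in both libraries, more of them lower than higher in the N-PRα-KO cells. Of 25 genes listed and measured, 11 were higher and 14 lower, 0 of them 2-fold higher (against 18.6% of all genes) and 2 of them 2-fold lower (against 10.2%). Without the GC trend 6 of the 25 were higher. The median log2 ratio was -0.32, and -0.29 without the GC trend, while in other cells the same genes had a median of 1.14. At the mitochondrial limit of 10%, which left 12 and 14 endothelial cells, the median was 0.11. In mural cells it was -3.41, where these genes summed to 668 CPM in N-PRα-KO and 6299 CPM in WT. In the endothelial cells they summed to 11590 and 13999 CPM, so the WT mural class held far more endothelial transcripts than the N-PRα-KO one. Mural medians here and below therefore also hold this difference between the mural classes. Whether cells of mixed content account for it was not tested. Shares of 18.6% and 10.2% of all genes are also the background for each 2-fold count of list members that follows. Kdr had a log2 ratio of -0.97 (-1.06 to -0.89), Cd34, a sialomucin of vessel surfaces, -0.83 (-0.93 to -0.73) and Cdh5, the endothelial cadherin, -0.91 (-1.09 to -0.73). Those 2-fold lower were transcription factors. Sox7, a SOX factor of endothelium, was at 40.9 and 175 CPM, a log2 ratio of -2.10 (-2.47 to -1.72), and Ets1 at 191 and 454 CPM, a log2 ratio of -1.25 (-1.45 to -1.04) that came to -0.42 without the GC trend. Ramp2, the co-receptor for adrenomedullin, was at 1248 and 776 CPM. Its log2 ratio was 0.69 (0.55 to 0.83), but -0.28 without the GC trend. Eng, a TGF-beta co-receptor, was at 155 and 82.6 CPM with a log2 ratio of 0.91 (0.49 to 1.36).

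Solute carriers of the barrier were lower in the N-PRα-KO cells for 16 of 18 genes. The median log2 ratio was -0.53 (-0.54 without the GC trend), with 4 genes 2-fold lower (against 10.2% of all genes) and 2 genes 2-fold higher (against 18.6%). The median was 0.48 in all other cells, 0.21 in fibroblasts, 0.19 in microglia and 0.95 in oligodendrocyte precursors. In mural cells it was -3.39, with sums of 806 and 7365 CPM. Slc16a1 (GRCm38 chr3:104638668-104658462, plus strand), which carries lactate and ketone bodies, was at 1697 and 5134 CPM, a log2 ratio of -1.60 (-1.66 to -1.53). Slc39a8, a zinc and manganese importer, was at 385 and 948 CPM and -1.30 (-1.44 to -1.16). Slc40a1, the iron exporter ferroportin, was at 473 and 983 CPM and Slc7a1, the cationic amino acid transporter, at 518 and 1062 CPM. Both of these were about 2-fold lower, with log2 ratios of -1.05 and -1.04. Slco1c1, the thyroid hormone carrier, and Mfsd2a, which takes up lipids holding docosahexaenoic acid, were at 1649.7 and 3060.1 CPM and at 432 and 735 CPM. Their log2 ratios were -0.89 and -0.77. In all other cells Slc16a1, Slc39a8, Slc7a1 and Mfsd2a were at -0.55, -0.03, -0.11 and -1.32, and Slc40a1 and Slco1c1 at 0.82 and 0.02. In fibroblasts Slc16a1 was at -1.77 and Mfsd2a at -0.63, while the others named were higher there. Slc16a1 and Mfsd2a were thus lower outside endothelial cells as well.

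The glucose transporter Slc2a1 (GRCm38 chr4:119108711-119137983, plus strand) was the main gene of this list to go the other way. It was at 1793 and 729.9 CPM, a log2 ratio of 1.30 (1.16 to 1.44) and 0.88 without the GC trend. Per cell its median was 1613 CPM in the N-PRα-KO cells (0 to 6852) and 648 CPM in the WT cells (0 to 3509), so the 2 sets overlapped. With every cell thinned to 2000 UMIs, Slc2a1 was seen in 89.4% and 71.4% of the endothelial cells, against 15.5% and 3.70% of microglia (unthinned 96.7% and 80.7% of endothelial cells, whose median depths are given above, with microglia at 5660 and 2827 UMIs). It also had a log2 ratio of 2.15 in all other cells. At the mitochondrial limit of 10% its log2 ratio was 0.03. Slc38a3, a glutamine carrier, had 437 and 8 UMIs, a ratio of 9.95-fold (95% interval 5.004 to 23.2).

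The transferrin receptor Tfrc (GRCm38 chr16:32608920-32632794, plus strand), through which iron enters the brain, had the lowest ratio of all endothelial-enriched genes. It was at 708 and 3285 CPM, 4.64-fold (95% interval 4.37 to 4.92) lower in the N-PRα-KO cells. Per cell its median was 555 CPM in the N-PRα-KO cells (0 to 5467) and 2932 CPM in the WT cells (0 to 8217). The upper quartile of the N-PRα-KO cells, 1063 CPM, lay below the lower quartile of the WT cells, 1469 CPM, with overlap at both ends. After thinning, Tfrc was seen in 62.5% and 89.01% of the cells, against 6.57% and 7.96% of microglia. The log2 ratio lay between -2.80 and -1.86 under the alternatives tried. In all other cells it was -0.85.

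ATP-driven efflux pumps went the other way from most solute carriers. All 4 measured of 6 listed were higher in the N-PRα-KO cells, 1 of them 2-fold, with a median of 0.92 and 0.56 in other cells. Abcb1a, the P-glycoprotein pump, was at 765 and 619 CPM, a log2 ratio of 0.31 (0.15 to 0.47). Abcg2, the breast cancer resistance protein, was at 484 and 264 CPM, a log2 ratio of 0.87 (0.64 to 1.12). At the mitochondrial limit of 10% the median of the list was -0.18. Abcc5, the gene 2-fold higher, was at 42.1 and 18.2 CPM, with a log2 ratio of -0.48 at that limit.

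Junction genes other than Cldn5 were mostly a little lower in the N-PRα-KO cells. Of 14 measured of 18 listed, 2 were higher and 12 lower, with 0 at 2-fold higher and 1 at 2-fold lower, a median of -0.43, and medians of 0.24 in all other cells and -1.67 in mural cells. The gene past 2-fold was Ctnnb1, which encodes beta-catenin, at 871 and 1959 CPM and a log2 ratio of -1.17 (-1.27 to -1.07), or -0.73 without the GC trend. Occludin (Ocln) was at 113 and 209.7 CPM and ZO-1 (Tjp1) at 341 and 408 CPM. Lsr, a protein of tricellular junctions, was at 321 and 236 CPM, a log2 ratio of 0.44, or -0.33 without the GC trend. Caveolar and uptake genes had a median of -0.07 over 11 measured of 14, with Tfrc and Lrp8, a receptor for reelin and apolipoprotein E, 2-fold lower and 0 genes 2-fold higher. Caveolin (Cav1) was at 259.9 and 481 CPM and Cavin1, a coat protein of caveolae, at 337 and 175 CPM, log2 ratios of -0.89 and 0.95. This median was 0.17 as a mean of per-cell CPM and 0.23 in cells of neither vessel range.

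**Figure D2:**
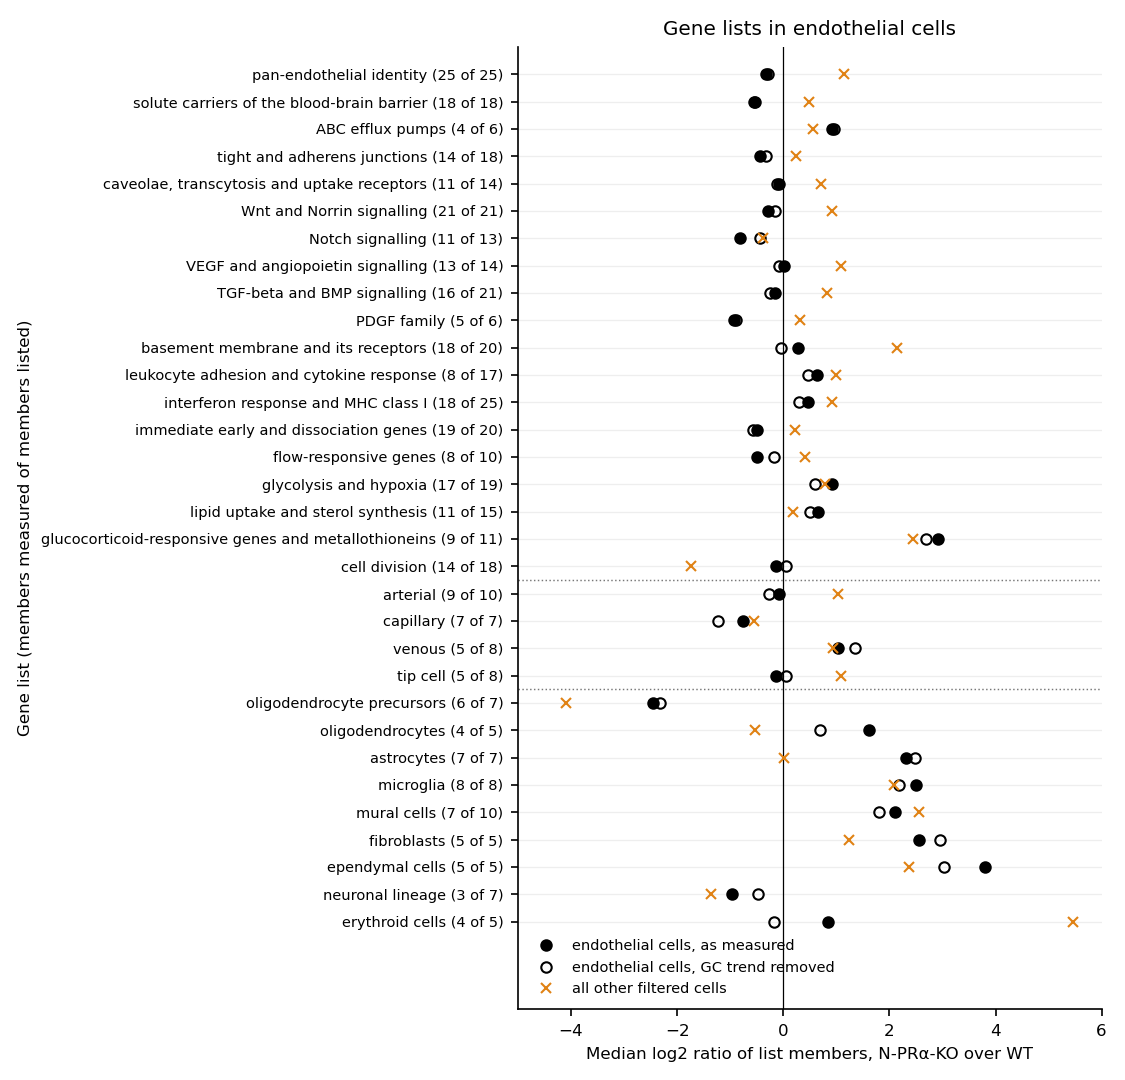
Median log2 ratio (N-PRα-KO over WT, x axis) of each gene list with 3 or more measured members, for endothelial cells as measured (filled), with the GC trend removed (open) and for all other filtered cells (cross). The lists for solute carriers and junctions lie to the left of 0 in endothelial cells and to the right in other cells, and glucocorticoid-responsive genes lie near 2.93 in endothelial cells and 2.45 in others.

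Wnt and Norrin signalling genes lay on both sides, more of them lower in the N-PRα-KO cells. Among receptors, Fzd4, the Norrin receptor, was at 215 and 100.7 CPM (log2 ratio 1.09, 0.71 to 1.49), while Tspan12, its tetraspanin partner, was at 56.2 and 157 CPM (-1.48, -1.84 to -1.11). Adgra2 and Reck, which together read Wnt7 ligands, were at 101.4 and 66.1 CPM and at 24.96 and 29.7 CPM. Among the nuclear factors, Lef1 was at 92.9 and 142 CPM, Tcf7 at 126 and 130.5 CPM and Tcf7l1, largely a repressor, at 83.6 and 28.1 CPM. Foxf2, a forkhead factor needed for the barrier, was at 191 and 399.7 CPM (-1.07, -1.28 to -0.85), and Notum, a Wnt-cleaving enzyme induced by the pathway, at 45.4 and 111 CPM (-1.28, -1.71 to -0.85). Axin2 and Apcdd1, also induced by it, were at 22.6 and 26.4 CPM and at 149.8 and 106 CPM. Of 21 genes, all measured, 6 were higher, 2 of them 2-fold, and 15 lower, 4 of them 2-fold, with a median of -0.29 against 0.91 in other cells and -0.88 in mural cells. At the mitochondrial limit of 10% the list's median was 0.05, and Foxf2 and Notum had log2 ratios of 0.11.

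In the Notch list, 9 of 11 measured of 13 were lower in the N-PRα-KO cells, with 4 genes 2-fold lower (against 10.2% of all genes) and 1 gene 2-fold higher (against 18.6%). The median was -0.81 (-0.44 without the GC trend), and -0.37 in other cells. Dll4, the arterial and tip-cell ligand, was at 64.7 and 236 CPM, a log2 ratio of -1.87 (-2.18 to -1.55). The target genes Hes1 and Nrarp were at 95.9 and 368 CPM and at 39.4 and 112 CPM, with log2 ratios of -1.94 and -1.51. The ligand Jag1 and the receptor Notch1 were also lower, at 56.5 and 99.1 CPM and at 132 and 205 CPM. The receptor Notch4 was higher, at 150.4 and 100.7 CPM. Heyl, a Notch target of mural cells, had 110 and 2 UMIs, a ratio of 10.02-fold (95% interval 2.71 to 83.7) in counts, and without the mural limit its log2 ratio was 0.24.

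Growth factor receptors and ligands gave no common direction. The 13 measured of 14 VEGF and angiopoietin genes had a median of 0.01, which changed sign under 8 of 15 alternatives, with 3 genes 2-fold higher and 1 gene 2-fold lower. Vegfc, a ligand best known in lymphatic growth, was at 37.9 and 89.2 CPM, and 0.35 was its log2 ratio among cells in neither vessel range. Angptl4, a hypoxia-induced inhibitor of lipoprotein lipase, was at 57.1 and 21.5 CPM, and Plxnd1, a semaphorin receptor, at 55.3 and 21.5 CPM, a log2 ratio of 1.37 or 0.38 without the GC trend. Vegfa had 69 and 3 UMIs, and its log2 ratio was -0.18 in the cells with fewer markers of other cell types. In the TGF-beta and BMP list, 5 of 16 measured of 21 were higher and the median was -0.15, or 0.05 with the sum of 8 other genes. Smad7, the feedback inhibitor of TGF-beta signals, was at 25.6 and 107 CPM (-2.07, -2.55 to -1.58), and Ltbp4, which anchors latent TGF-beta, at 443 and 127 CPM (1.80, 1.47 to 2.15, or 0.52 without the GC trend). Tgfbr2, a receptor, was at 296 and 515 CPM and Acvrl1, the endothelial BMP9 receptor, at 228 and 126 CPM. The log2 ratio of Acvrl1 was 0.86, or 0.03 without the GC trend.

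The PDGF family includes Pdgfra, the gene deleted in N-PRα-KO mice. Pdgfb, which endothelium makes to recruit pericytes, was at 169.6 and 246 CPM, a log2 ratio of -0.54 (-0.80 to -0.27). Per cell, Pdgfb had a median of 110 CPM in N-PRα-KO (0 to 1774) and 165 CPM in WT (0 to 1361). Pdgfd and Pdgfa, 2 further ligands, were at 46.9 and 126 CPM and at 33.7 and 64.4 CPM. Pdgfra itself was at 49.3 and 130.5 CPM in the endothelial cells, against 245 and 2413 CPM in all other filtered cells, and after thinning it was seen in 4.76% and 19.8% of endothelial cells and 3.28% and 20.7% of microglia. The endothelial share was a little below the microglial one in WT and a little above it in N-PRα-KO. Whether these Pdgfra UMIs are background was not tested. Of 5 measured of 6 genes, 1 was higher and 4 lower, with a median of -0.94, and 0.31 in all other cells and -0.97 in mural cells. The gene 2-fold higher, the mural receptor Pdgfrb, had 94 and 4 UMIs, and its log2 ratio was -0.48 at the mitochondrial limit of 10% and -0.08 in the cells with fewer markers of other cell types.

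Basement membrane genes were mixed and close to 0 once GC content was taken into account. Of 18 measured of 20, 13 were higher, 5 of them 2-fold, and 5 lower, 1 of them 2-fold. The median was 0.28, and -0.05 without the GC trend, against 2.14 in other cells. Col4a1 and Col4a2, the chains of collagen IV, were at 1533 and 1158 CPM and at 1099 and 479 CPM. Nid1, which links laminin to collagen IV, was at 473 and 1176 CPM, a log2 ratio of -1.31 (-1.44 to -1.18). Sparc, a matrix glycoprotein, was at 8429 and 7565 CPM and seen in every thinned cell of both libraries. Col15a1 had 857 and 4 UMIs, a ratio of 39.02-fold (95% interval 15.2 to 144). It stood at 961 and 89.3 CPM in all other cells, above the endothelial level of each library, and after thinning it was seen in 31.4% and 0% of endothelial cells and 30.7% and 8.52% of microglia. Lamb2, a laminin chain that was 2-fold higher at 117 and 37.98 CPM, had a log2 ratio of -2.11 at the mitochondrial limit of 10%.

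Inflammatory and interferon genes lay on both sides. In the leukocyte adhesion and cytokine list, 8 of 17 were measured, 5 of them higher, with a median of 0.64, and -0.26 among cells in neither vessel range. Of the selectins, Sele had 0 UMIs in both libraries and Selp 1 and 0. Nfkbia, the inhibitor of NF-kappa-B, was at 644 and 340.2 CPM, and the chemokine Cxcl12 at 837 and 1225 CPM. Tnfaip3, another inhibitor of that pathway, had 31 and 19 UMIs, and its log2 ratio was 0.03 with an endothelial sum of at least 0.6%. In the interferon and MHC class I list, 10 of 18 measured of 25 were higher, 6 of them 2-fold, and 2 of the lower ones were 2-fold lower. The median was 0.46, or -0.14 at the mitochondrial limit of 10%. Ly6e, an interferon-inducible surface protein, was at 1936 and 271 CPM, 7.15-fold (95% interval 6.12 to 8.40) higher, and had a log2 ratio of 3.49 in other cells. B2m and H2-K1, which form MHC class I, were lower at 764 and 1239 CPM and at 139 and 296 CPM.

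Immediate early genes, which dissociation can induce, were lower in the N-PRα-KO cells for 12 of 19 measured of 20. The median was -0.50, with 6 genes 2-fold lower and 3 genes 2-fold higher, and 0.22 in all other cells. The same list was also lower in mural cells (-0.32), microglia (-0.82) and fibroblasts (-1.72), and stood at 0.07 in oligodendrocyte precursors. Fos was at 173 and 446 CPM and Hspa1b, a heat shock protein, at 300.5 and 775 CPM. Their log2 ratios were -1.37 and -1.37, and at the mitochondrial limit of 10% the median of the list was 0.86 and Fos had 1.11. The heat shock gene Hspa1a was at 174 and 335 CPM and Jun at 413 and 670.5 CPM. Ctgf, a matrix-associated target of YAP, had the highest ratio of 3394 genes ranked (WT counts under 3 taken as 3), with 837 and 3 UMIs and a ratio of 50.8-fold (95% interval 17.3 to 247). Per cell, Ctgf had a median of 98 CPM in the N-PRα-KO cells (0 to 2627), while 111 of 114 WT cells had no UMI of it. Its log2 ratio was 5.67, 3.89 without the mural limit, 0.52 at the mitochondrial limit of 10%, and 3.01 in other cells.

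Flow-responsive genes lay on both sides, and most genes of glycolysis were higher in the N-PRα-KO cells. Of 8 measured of 10 flow-responsive genes 3 were higher, with a median of -0.49, or 0.11 at the mitochondrial limit of 10%. Klf2, the main flow-induced factor, was at 518 and 452 CPM, its relative Klf4 at 337 and 545 CPM, and the potassium channel Kcnj2 at 25.6 and 121 CPM. Edn1, the vasoconstrictor endothelin, was at 349 and 90.8 CPM, 3.84-fold (95% interval 2.93 to 5.13) higher, seen after thinning in 42.02% and 13.2% of endothelial cells against 1.94% and 1.85% of microglia. Of 17 measured of 19 genes of glycolysis and hypoxia 14 were higher, 8 of them 2-fold (against 18.6% of all genes), with a median of 0.91 and 0.79 in other cells. Without the GC trend 10 of the 17 were higher and the median was 0.59. Gapdh was at 481 and 87.5 CPM and Ldha at 223 and 192 CPM, log2 ratios of 2.46 and 0.22. Pfkfb3, an activator of glycolysis in sprouting endothelium, was the one gene 2-fold lower, at 11.4 and 26.4 CPM.

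All 9 measured of 11 glucocorticoid-responsive genes and metallothioneins were higher in the N-PRα-KO cells, 7 of them 2-fold (against 18.6% of all genes). The median was 2.93, between 1.14 and 3.21 under the alternatives, and 2.45 in all other cells. The metallothionein Mt1 was at 1207 and 92.5 CPM, 13.05-fold (95% interval 10.03 to 17.3) higher. The thioredoxin inhibitor Txnip was at 426 and 56.1 CPM and the cell cycle inhibitor Cdkn1a at 459.6 and 89.2 CPM. Zbtb16, a hormone-induced zinc-finger factor, had 156 UMIs in the N-PRα-KO cells and 0 in the WT cells, at least 9.47-fold higher with 3 UMIs allowed over the WT cells. Mt1 was also found in 84.6% and 35.7% of thinned microglia, against 82.6% and 16.5% of thinned endothelial cells. In the lipid list, 7 of 11 measured of 15 were higher with a median of 0.66, led by Apoe at 1982 and 226 CPM, which other cells held at 3138 and 901 CPM. The sterol synthesis gene Sqle was lower, at 18.3 and 44.6 CPM. Pltp, the phospholipid transfer protein, was at 2056 and 928 CPM, and without the GC trend its log2 ratio was -0.07.

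Transcripts of division genes were found in some endothelial cells of both libraries. At least 5 UMIs of the 18 division genes were found in 76 N-PRα-KO cells (20.9%) and 27 WT cells (23.7%), and at least 10 in 39 (10.7%, exact 95% interval 7.75 to 14.4) and 11 (9.65%, 4.92 to 16.6). These cells were not thinned, and the largest sums were 250 and 56 UMIs. The list had a median log2 ratio of -0.15 in endothelial cells over 14 measured genes, or 0.06 without the GC trend and 0.62 in cells with fewer markers of other types, and of -1.75 in all other cells. Mki67 was at 71.9 and 59.5 CPM and Top2a, a topoisomerase of dividing cells, at 83.6 and 74.3 CPM. The replication clamp Pcna was at 70.98 and 177 CPM, a log2 ratio of -1.32 (-1.65 to -0.97).

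The 149 endothelial-enriched genes were then compared as a set, each at least 3-fold above the other cells of both libraries. Their median log2 ratio was -0.23, and -0.22 without the GC trend, against 1.02 in other cells. They held 62 higher and 87 lower genes. Of them 7 (4.70%) were at least 2-fold higher, against 18.6% of all genes, and 12 (8.05%) at least 2-fold lower, against 10.2%. A gene had to reach 100 CPM in both libraries to enter, so one near absent in either could not.

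The 7 higher genes were Ly6e, Ltbp4, Gsta4, Bsg, Slc2a1, Sgms1 and Fzd4. Bsg, the partner that brings lactate carriers to the cell surface, was at 8565 and 3298 CPM, a log2 ratio of 1.38 (1.31 to 1.44). Without the GC trend Bsg was at 0.36, and in all other cells it was at 2.53. Gsta4, a glutathione transferase, was at 720.3 and 236 CPM and Sgms1, a sphingomyelin synthase, at 741 and 324 CPM. The 12 lower genes included Tfrc, Nampt, Slc16a1, Lmo2, Slc39a8, Ets1, Nxpe4, Lrp8, Itm2a, Slc40a1 and Slc7a1. Nampt, which makes the precursor of NAD, was at 609 and 1931 CPM (-1.66, -1.77 to -1.56). Lmo2, a partner of Tal1 in endothelial and blood lineages, was at 314 and 778 CPM (-1.31, -1.47 to -1.15), and the membrane protein Itm2a at 3087 and 6612 CPM (-1.10, -1.15 to -1.05). Without the GC trend Nampt, Lmo2 and Itm2a were at -1.12, -0.94 and -0.48. In all other cells they were at -1.02, 0.56 and 0.04. Some of these 19 genes, Gsta4, Bsg, Sgms1, Nampt, Lmo2, Nxpe4 and Itm2a among them, were singled out after their values were seen.

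**Figure D3:**
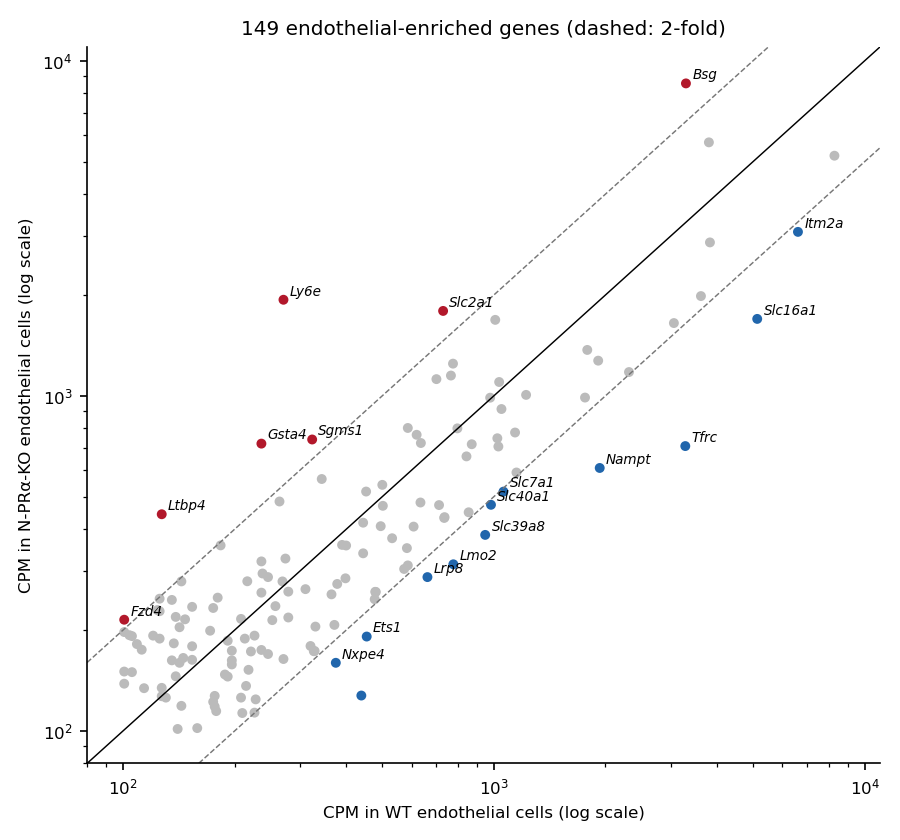
Level of the 149 endothelial-enriched genes in WT endothelial cells (x axis) and in N-PRα-KO endothelial cells (y axis), both in CPM on log axes, with the line of equal levels and dashed lines at 2-fold. The 7 genes at least 2-fold higher in N-PRα-KO (red) and the 12 at least 2-fold lower (blue) are coloured, most of them with their names, and Ly6e (log2 ratio 2.84) and Tfrc (-2.21) are the extremes.

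Over all genes at 50 CPM or more, not only enriched ones, the 10 lowest ratios included those of Col10a1, Tnfrsf11b, Cxcr4, Dusp2, Gnai1, Kcnj2, Slc38a2, Tfrc and Map7. All 52 Col10a1 UMIs came from 1 WT cell, 0.877% of the WT endothelial cells. Cxcr4, the chemokine receptor of tip cells, was at 21.96 and 178 CPM, 8.12-fold (95% interval 5.98 to 11.1) lower. It was found in 3.64% and 19.8% of thinned cells against 1.79% and 1.67% of microglia, and its log2 ratio in other cells was -0.54. Tnfrsf11b, the decoy receptor osteoprotegerin, was at 12.6 and 134 CPM, and Slc38a2, a neutral amino acid carrier, at 224 and 1044 CPM. The highest ratios were those of Kif5a, Lims2, Per1, Paqr5, Vamp8, Nrgn, Ttr, Uqcr11, Ftl1 and Ctgf. Each of these but Ttr had 1 to 4 UMIs in the WT cells, and Ftl1 and Uqcr11 had log2 ratios of 6.31 and 4.64 in other cells as well. Nrgn and Paqr5 had -0.48 at the mitochondrial limit of 10%.

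Transcripts that define other cell types were present in unequal amounts. The 8 microglial genes were all higher in the N-PRα-KO cells and summed to 946 and 235 CPM, against 29006 and 23773 CPM in microglia. Tmem119 and C1qa were at 0 in the WT cells. The 5 fibroblast genes were all higher and summed to 1152 and 180 CPM, none at 0. The 10 mural genes summed to 1029 and 378 CPM, 7 were measured and all higher, and Tagln was at 0 in WT. Astrocyte genes, none at 0, summed to 2198 and 672 CPM, 6 of 7 higher, and ependymal genes to 339 and 28.1 CPM, 5 of 5 higher. Oligodendrocyte precursor genes went the other way, with 6 of 6 measured of 7 lower, sums of 223 and 644 CPM and at most 0.357% and 1.97% of a cell's UMIs. Border macrophage genes summed to 81.5 and 6.61 CPM (2 of 2 measured of 4 higher, Mrc1 and F13a1 at 0 in WT), oligodendrocyte genes to 257 and 279 CPM (3 of 4 measured of 5 higher) and neuronal genes to 148 and 162 CPM (1 of 3 measured of 7 higher). Erythroid genes summed to 780 and 512 CPM, 2 of 4 measured of 5 higher, and 0 of 3 lymphocyte genes were measured. Ttr, the choroid plexus transthyretin, was at 2382 and 104 CPM and was seen after thinning in 97.8% and 15.4% of endothelial cells and 95.2% and 17.8% of microglia. The largest share of these markers in a single endothelial cell was 6.25% of UMIs for astrocyte genes in N-PRα-KO (0.342% in WT) and 3.81% and 1.56% for erythroid genes, against 3.19% and 2.05% for the largest endothelial sum. For microglial, mural, fibroblast, ependymal and border macrophage genes it was at most 0.628%. The rule itself limited some of the microglial, mural and fibroblast genes, so the low maxima of those lists were partly set by the choice of cells. The part of these transcripts in the ratios above was not tested. In the cells at or under their library's median share of such markers, 182 and 57 cells, 1254 genes were 2-fold higher and 873 lower.

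Vessel zones were read from 10 arterial and 8 venous genes. A cell with at least 3 UMIs of the arterial list and at least 2 times its venous UMIs was placed in the arterial range, and the reverse in the venous range. These are ranges of a sum and not cell types: 7 and 1 arterial and 15 and 11 venous cells lay 1 UMI above the limit. As sequenced, 79 N-PRα-KO cells (21.8%) were in the arterial range, 171 (47.1%) in the venous range and 113 in neither. In WT the numbers were 28 (24.6%), 29 (25.4%) and 57. Median depths differed between ranges, with 7641, 9548 and 5134 UMIs in N-PRα-KO and 4731, 8124 and 2629 in WT. Thinned to 2000 UMIs, which left out 6 and 23 shallower cells, the arterial range held 15.4% and 19.8% of cells and the venous range 19.9% (exact 95% interval 15.9 to 24.4) and 5.49% (1.81 to 12.4).

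**Figure D4:**
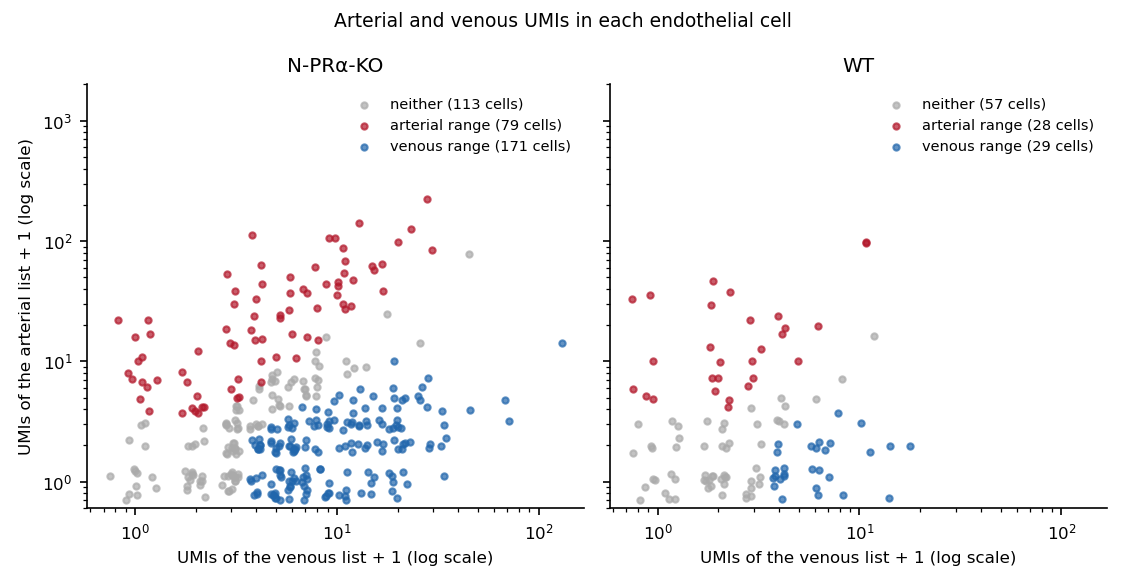
UMIs of the arterial list (y axis) and of the venous list (x axis) in each endothelial cell, plus 1 and with a small random shift so that points do not hide each other, on log axes. Colours mark the arterial, venous and neither ranges with their cell numbers. Arterial sums reach 221 UMIs in N-PRα-KO and 97 in WT, and venous sums 129 and 17.

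The venous list itself was among the higher ones in the N-PRα-KO cells. Of 5 measured of 8 genes, 4 were higher, 3 of them 2-fold, with a median of 1.03, or -0.04 without the mural limit and 2.01 with an endothelial sum of at least 0.6%. Von Willebrand factor (Vwf) was at 222 and 37.98 CPM, 5.84-fold (95% interval 3.86 to 9.26) higher, and seen after thinning in 33.9% and 3.30% of the cells against 3.43% and 0.185% of microglia. Nr2f2, the venous fate regulator, was at 135 and 66.1 CPM, a log2 ratio of 1.03 (0.56 to 1.54) that was -0.04 without the mural limit. Slc38a5, the venous glutamine carrier, was at 265 and 310.5 CPM. The 7 capillary genes, which include Tfrc, Slc16a1, Mfsd2a and Cxcl12, were lower in the N-PRα-KO cells for 6, with a median of -0.77. That median was -0.55 in all other cells, -0.53 in microglia, -0.07 in fibroblasts and 0.38 in oligodendrocyte precursors. The lower genes included Rgcc, a cell cycle regulator of capillaries, at 78.5 and 264 CPM, a log2 ratio of -1.75 (-2.04 to -1.46). Car4, a carbonic anhydrase of capillaries, was at 1122 and 700.2 CPM. The arterial genes had a median of -0.09, which was 0.90 in cells of neither range, 0.59 with the sum of 8 other genes and 0.00 without the mural limit, and the tip-cell genes -0.13, or 0.44 with an endothelial sum of at least 0.6%. Apln, the tip-cell peptide apelin, was at 260.2 and 479 CPM.

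Genes on neither list that differed most between the ranges in the N-PRα-KO cells were then looked up in the WT cells, which took no part in their choice. Of 1786 genes ranked, the 12 most arterial were Syt15, Eln, Egfl8, Olfml2a, St8sia6, Fbln2, Ace, Atp2a3, Cdh13, Unc5b, Tmem100 and Mgp. The 12 lowest in the arterial relative to the venous range were Aplnr, Reep1, Rnase4, Apln, Flrt2, Car4, Nampt, Itga4, Trp53i11, Slco2a1, Fth1 and Ctgf. Cells of neither range took no part in this ranking. In both libraries Apln, Itga4 and Trp53i11 were higher in those cells than in the venous range, and the other genes were not. Apln stood there at 340 CPM in N-PRα-KO and 872 CPM in WT, against 298 and 354 CPM in the venous range. Atp2a3, with 1 and 0 UMIs in the WT arterial and venous ranges, and Ctgf, with 0 and 1, could not be placed in WT. Of the other 22 genes, 11 on the arterial and 11 on the venous side, all lay on the same side in WT, 8 of each with a counting interval clear of 0. How many of all 1786 ranked genes keep their side in WT is not given here, so these counts have no background beside them. Elastin (Eln), which gives arteries their recoil, was at 7514 CPM in the arterial and 254 CPM in the venous range of N-PRα-KO, and at 2351 and 12.96 CPM in WT. Matrix Gla protein (Mgp), an inhibitor of calcification, was at 2069 and 232 CPM and at 330.5 and 17.3 CPM. Unc5b, a netrin receptor, was at 243 and 24.9 CPM and at 439 and 21.6 CPM.

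On the venous side, the ferritin heavy chain Fth1 was at 1995 CPM in the arterial and 7667 CPM in the venous range of N-PRα-KO and at 1373 and 6457 CPM in WT. Car4 was at 258 and 1362 CPM and at 209.7 and 1024 CPM. The apelin receptor Aplnr was at 9.34 and 166 CPM in N-PRα-KO, and in WT it had 0 and 58 UMIs, at 0 and 250.5 CPM. Car4, Apln and Nampt, the first of them a capillary gene here, stood on the venous side in both libraries.

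**Figure D5:**
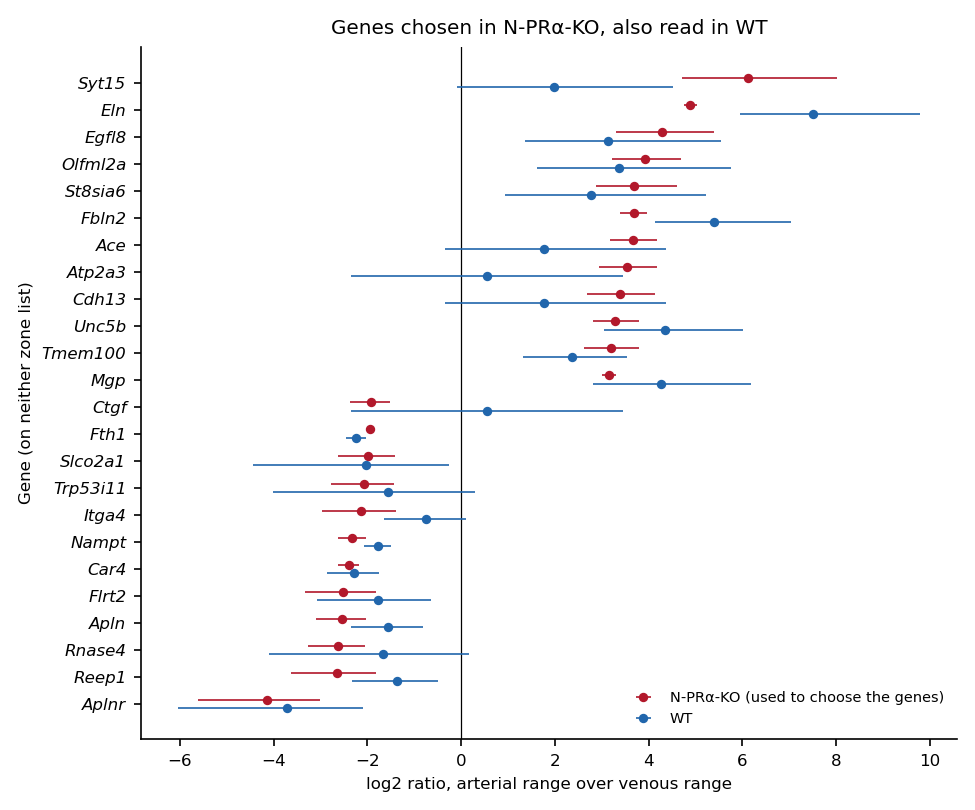
Log2 ratio of the arterial over the venous range for 24 genes chosen in the N-PRα-KO cells, in N-PRα-KO and in WT, with exact 95% counting intervals. In WT 22 of the genes lie on the same side of 0 as in N-PRα-KO, the WT points of Atp2a3 and Ctgf rest on 1 UMI each and place neither gene, and intervals are wider in WT, where fewer UMIs were counted.

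Barrier genes could then be set beside the ranges. Ly6c1 was higher in the arterial than in the venous range in both libraries, at 5261 and 2556 CPM in N-PRα-KO and 3711 and 1792 CPM in WT. The chemokine Cxcl12 was at 1490 and 403 CPM in N-PRα-KO and 2644 and 246 CPM in WT. Tfrc was lower in the arterial range, at 330.1 and 744 CPM in N-PRα-KO and 2548 and 3231 CPM in WT. In every range Tfrc was thus lower in the N-PRα-KO cells, and in cells of neither range it stood at 929 and 3877 CPM. Slc16a1 was likewise at 1225, 1811 and 1810.3 CPM in the arterial, venous and neither ranges of N-PRα-KO and at 5313, 4695 and 5475 CPM in WT. Slc2a1 was higher in N-PRα-KO in each range, at 2225, 1805 and 1416 CPM against 1093, 514 and 697 CPM. Levels by range are CPM of UMIs summed over the cells of a range, so deeper cells weigh more. They rest on 79, 171 and 113 cells of 1 library and 28, 29 and 57 of the other.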

How the data were processed

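Raw UMI counts per cell and gene were deposited for both libraries, and per the file headers the authors ran N-PRα-KO through release 1.10 and WT through release 1.10.1 of the BD Rhapsody WTA Analysis Pipeline, on GRCm38. The 2 libraries were run separately, so pipeline version and genotype cannot be told apart, and no aligner is named in the labels or headers. Builds GRCm38 and mm10 are named per the submitters' processing notes.

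Cells were kept at 300 or more genes and at most 25% mitochondrial UMIs. Counts were summed over the endothelial cells of a library and divided by their total UMIs, times 1000000 (CPM). Compared were the 7084 genes that reached 20 CPM in at least 1 of the libraries. Intervals are 95%: exact Poisson for a level, exact binomial for a share and conditional binomial for a ratio. They cover counting error only, and counts under 3 were set to 3 in ratios. The GC trend over the last 500 transcript bases was removed by lowess (fraction 0.3). For shares of cells with a UMI, cells were thinned to 2000 UMIs. Scrublet called 10 N-PRα-KO barcodes (0.238%) and 174 WT barcodes (1.73%), of which 0 and 1 were endothelial cells; these stayed in, and removing them is an alternative.

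With 1 library per group no test was made, and no replicate could be left out. The members and gene lists were chosen with earlier results of these data known. Genes were named by rule: those that choose the cells, the 10 highest and 10 lowest ratios at 50 CPM or more, from each list the 4 largest ratios and the 2 highest levels, and the 15 most enriched over other cells at 100 CPM or more. Mitochondrial, ribosomal protein, haemoglobin, predicted and sex-linked marker genes were left out of rankings, and from the ratio ranking also genes over 3 times higher in another cell class. A few genes that the rule names are not reported here. Other list members and the zone genes named were chosen after their values were seen. Alternatives changed the cell limits, scaling, minimum level and zone limits. Ratios and GC removal were tested on simulated data. Python 3.11.15, numpy 2.4.6, scipy 1.17.1, pandas 2.3.3, statsmodels 0.14.6, scanpy 1.11.5, matplotlib 3.10.9, R 4.3.3 and edgeR 4.0.16 (TMM factors) were used.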

Additional observations from a re-analysis of the deposited data

Results flagged for a closer look

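Cells with endothelial transcripts were found outside the 477 described. Over the mitochondrial limit, 67 N-PRα-KO and 9 WT barcodes met every other limit of the rule. The mural limit removed 153 N-PRα-KO and 126 WT cells that had reached the endothelial sum. By the sum of 8 other endothelial genes, 2 N-PRα-KO and 43 WT cells met the limits and were not members.

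For some gene lists the median log2 ratio between the libraries (N-PRα-KO over WT) lay on opposite sides of 0 in endothelial cells and in another cell class. Solute carriers of the barrier were at -0.53 in endothelial cells and 0.95 in oligodendrocyte precursors. The PDGF family was at -0.94 and 1.30 in those same classes. Lipid uptake and sterol synthesis genes were at 0.66 in endothelial cells and -0.62 in microglia. These differences between cell classes were not tested.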

How the results depend on the processing

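The endothelial share of N-PRα-KO cells was 2.45% at a mitochondrial limit of 10%, 6.27% with no such limit, 7.70% with an endothelial sum of at least 0.6% and 12.04% without the mural limit. The WT share was 0.732%, 0.616% and 2.24% at the first, the third and the last of these, and 1.53% with 8 other endothelial genes. Genes 2-fold higher numbered 397 at the 10% limit and 286 at a minimum of 100 CPM, and genes 2-fold lower 214 at that minimum. The N-PRα-KO arterial range held 15.4% when thinned, the venous range 36.6% with at least 5 UMIs and 19.9% when thinned, and the WT venous range 14.9% and 5.49%. Of the list medians past 1 on the log2 scale, sign changed for venous genes without the mural limit (-0.039), oligodendrocyte genes at the 10% limit (-0.023) and at 100 CPM (-0.33), and ependymal genes at the 10% limit (-0.48). Smaller medians that changed sign at the 10% limit were pan-endothelial (0.11), ABC pumps (-0.18), Wnt (0.05), interferon (-0.14), immediate early (0.86), flow (0.11), tip-cell (0.18), lymphatic (0.33), neuronal (1.11) and erythroid genes (-2.63). Leukocyte adhesion (-0.26), caveolar (0.23), fenestrated (0.26) and arterial genes (0.90) did so in cells of neither range, neuronal genes (0.80) in cells with fewer other markers, TGF-beta genes (0.05) with 8 other genes, and basement membrane (-0.05), division (0.06) and erythroid genes (-0.17) without the GC trend. VEGF genes did so under 8 alternatives (-0.51 to -0.01). Of 99 named genes past 2-fold, 18 changed sign at least once. At the 10% limit, which left 12 and 14 cells, these were Abcc5, Nrgn, Paqr5 and Pdgfrb (-0.48 each), Efnb2, Foxf2 and Notum (0.11 each), Fos (1.11), Lamb2 (-2.11) and Psmb8 (-0.15). Il1r1 (-0.63) and Vegfc (0.35) did so in cells of neither range, Mmrn1 (0.51) and Tnfaip3 (0.028) at a sum of 0.6%, and Nr2f2 (-0.039) without the mural limit. Pdgfrb (-0.076) and Vegfa (-0.18) did so in cells with fewer markers of other types, Pltp (-0.065) without the GC trend and Slc27a4 (-0.24) when thinned. The causes were not tested. WT depth, 605529 UMIs over 114 cells, limits genes under 20 CPM. No paired analysis was possible because each group has 1 library.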
